A study of Homo sapiens with 2 samples.

Results

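YAP1 and WWTR1, the TEAD factors they bind and a set of their target genes were examined in MIA PaCa-2 cells, an established line from a human pancreatic carcinoma. The 10 genes (YAP1, WWTR1, TEAD1, TEAD4, CYR61, CTGF, AMOTL1, AMOTL2, ARHGEF17 and NT5E) were taken by symbol from the 58698 genes of the deposited table, and all 10 were found. There were 2 groups of 1 library each. The sgTPST2 cells carried a guide against TPST2, the Golgi enzyme that adds sulfate to tyrosines of secreted and membrane proteins, and are labelled with the genotype TPST2 KD. The sgGFP cells carried a guide against GFP, a jellyfish protein that human cells lack, and are labelled WT. The sources used here do not say how the guide acts or whether the cells were a pool or a clone. With 1 library a group there is no replicate check, and no difference below was tested.

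YAP1 and WWTR1 (whose protein is called TAZ) are co-activators at the end of the Hippo pathway. When its kinase cascade is active, they are phosphorylated and kept out of the nucleus; otherwise they enter it and bind TEAD proteins, which recognise the motif GGAATG in DNA. They are controlled largely at the protein level, by phosphorylation and localisation, which RNA levels do not show. Well-known targets are the secreted matricellular proteins CYR61 and CTGF, and the angiomotins, which bind YAP1 and hold it back.

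Values are FPKM, which count sequenced fragments relative to transcript length and library size, so levels can be compared between genes. Differences are log2((sgTPST2 + 1)/(sgGFP + 1)), and a gene is called higher or lower when it is at least 1.5-fold apart on that scale. From the smallest steps in low values, 1 FPKM was worth about 47.85 fragments on each kb of RNA in sgTPST2 and 42.02 in sgGFP. Intervals are 95% Poisson intervals (for differences, conditional binomial) for 1 kb of transcript and cover counting error only. The targeted gene TPST2 was at 1.92 FPKM in sgTPST2 and 8.46 FPKM in sgGFP, a difference of -1.70. Of 6 pancreatic epithelial markers, the keratins KRT8, KRT18 and KRT19 passed 1 FPKM, and all 3 were lower in sgTPST2. EPCAM is listed at 0 in both libraries, and the summed marker level was 139.9 FPKM in sgTPST2 and 1283 FPKM in sgGFP.

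The promoter of CTGF carried the motif 3 times. In RefSeq's promoter table (GRCh38.p14) 6 of the 10 genes had an entry; CYR61, TEAD1, TEAD4 and ARHGEF17 had none. The 250 bases before each start site were searched for GGAATG on both strands (CATTCC on the other). The CTGF window is chr6:131951373-131951622, minus strand, shown 5′ to 3′ with the motif in capitals.
CTGF: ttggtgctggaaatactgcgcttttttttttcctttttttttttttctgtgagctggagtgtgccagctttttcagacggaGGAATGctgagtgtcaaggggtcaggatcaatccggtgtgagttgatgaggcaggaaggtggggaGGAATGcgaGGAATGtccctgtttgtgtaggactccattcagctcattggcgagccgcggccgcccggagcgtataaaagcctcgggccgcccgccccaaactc
The matches in CTGF begin 169, 104 and 95 bases before the start site. AMOTL2 held 1 match in 1 of its 2 windows, beginning 69 bases before the start site, and YAP1 held 1, beginning 162 bases before it. Each is shown in 30 bases around the match, at chr3:134374499-134374528 on the minus strand for AMOTL2 and at chr11:102110273-102110302 on the plus strand for YAP1.
AMOTL2: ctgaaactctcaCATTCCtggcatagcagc
YAP1: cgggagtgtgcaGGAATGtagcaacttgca
The AMOTL2 match, the NT5E and AMOTL1 windows and both WWTR1 windows lie inside the spans that GENCODE gives these genes. They are downstream of the outermost start sites. The letters were not found in the windows of WWTR1, AMOTL1 and NT5E. The bases before the outermost start sites of WWTR1, AMOTL1 and NT5E were not searched. Over all 35116 promoter windows of that table, 11.9% held the motif at least once and 0.0826% held 3 or more copies. The cutoff of 3 copies equals the number found in CTGF. A match is a stretch of letters and was not measured as a binding site, and its relation to the differences was not tested.

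All 10 genes reached 1 FPKM in at least 1 library, and they went both ways. In sgTPST2, 3 were higher (CTGF, AMOTL2 and ARHGEF17) and 3 were lower (NT5E, WWTR1 and TEAD4). Over the 13420 genes at 1 FPKM or more, 4.41% were called higher and 6.94% lower; among the 11048 protein-coding genes, 3.16% were called higher and 5.91% lower. The remaining 4 genes (TEAD1, CYR61, AMOTL1 and YAP1) were within 1.5-fold. The 6 target genes had a median difference of 0.60 and the 4 factors one of -0.31, against -0.00019 over all genes at 1 FPKM or more. Without TEAD4, which lies on a chromosome arm that was lower as a whole, the median of the factors was 0.023. The authors' q-values and p-values that follow rest on 1 library a group, so they do not measure the spread between cultures. The genes tested by the authors include some below 1 FPKM in both libraries, whereas all 10 genes reached it in at least 1, so the shares are not like for like. The authors' deposited table gives none of the 10 genes a q-value of 0.05 or less: the lowest are 0.145 for CTGF, 0.217 for NT5E and 0.468 for AMOTL2, and the others have 0.99965. In that table, 96 genes are at 0.05 or less, 0.517% of the 18574 genes tested by the authors. The unadjusted p-value in the authors' deposited table is under 0.05 for 4 of the 10 genes (CTGF, NT5E, AMOTL2 and WWTR1) and for 3.19% of the genes tested.

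**Figure D1:**
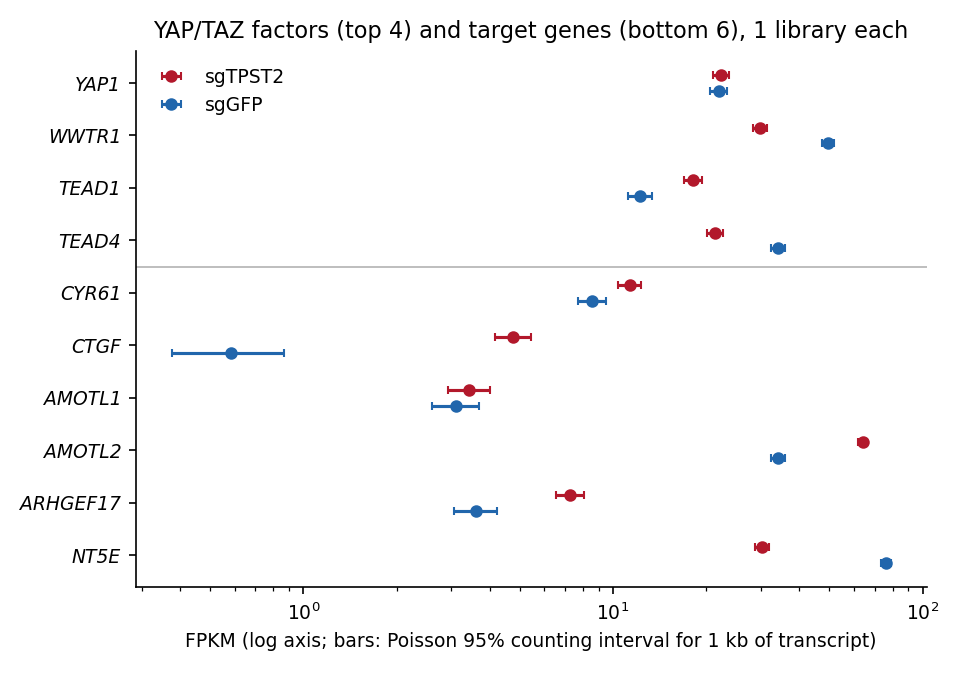
FPKM of the 10 genes (log axis) in sgTPST2 and sgGFP, 1 library each, with 95% Poisson counting intervals for 1 kb of transcript. CTGF is the gene with the widest gap, at 4.77 FPKM in sgTPST2 and 0.583 FPKM in sgGFP, while the intervals of YAP1 and of AMOTL1 overlap between the libraries.

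Of the co-activators, YAP1 was level and WWTR1 lower. YAP1 (ENSG00000137693.13, chromosome 11, 102110461 to 102233423, plus strand; GRCh38 here and for the genes that follow) was at 22.3 FPKM in sgTPST2 and 21.97 FPKM in sgGFP. Its difference of 0.02 had a counting interval of -0.10 to 0.15, so a change of more than about that size was not seen, though 1 library a group does not show that the levels are alike. WWTR1 (ENSG00000018408.14, chromosome 3, 149517235 to 149736714, minus strand) was at 29.9 FPKM in sgTPST2 and 49.5 FPKM in sgGFP. That is 1.64-fold lower, a difference of -0.71 (counting interval -0.81 to -0.61). The 23 well-expressed protein-coding genes from 140 to 150 Mb of chromosome 3, WWTR1 among them, had a median of -0.16. Relative to that median WWTR1 was at -0.55, under 1.5-fold. Genes inside the span of WWTR1 stayed below 1 FPKM in both libraries. Its antisense gene WWTR1-AS1 was at 0.648 FPKM in sgTPST2 and 0.762 FPKM in sgGFP. The intronic gene WWTR1-IT1, on the same strand as WWTR1, was at 0.312 FPKM in sgTPST2 and 0.809 FPKM in sgGFP.

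The balance of the paralogues differed between the libraries. WWTR1 stood at 1.34 times YAP1 in sgTPST2 (counting interval 1.24 to 1.45) and at 2.25 times YAP1 in sgGFP (2.09 to 2.44). Together they summed to 52.2 FPKM in sgTPST2 and 71.5 FPKM in sgGFP, of which YAP1 made up 42.8% in sgTPST2 and 30.7% in sgGFP. YAP1 and WWTR1 differ in their partners and are both inactivated by LATS kinases, which belong to the same pathway.

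Among TEAD factors, which bring YAP1 and TAZ to DNA, TEAD4 was lower and the others were not. TEAD4 (ENSG00000197905.8, chromosome 12, 2959330 to 3040673, plus strand) was at 21.4 FPKM in sgTPST2 and 34.0 FPKM in sgGFP, a difference of -0.65 (-0.76 to -0.53), or 1.56-fold lower. TEAD1 (ENSG00000187079.16, chromosome 11, 12674591 to 12944483, plus strand) was at 18.2 FPKM in sgTPST2 and 12.2 FPKM in sgGFP, a difference of 0.53 (0.38 to 0.68), just under 1.5-fold; relative to the median of its 10-Mb window (-0.06) it was at 0.59, just past it. TEAD2 was at 15.7 FPKM in sgTPST2 and 12.1 FPKM in sgGFP, and TEAD3 was at 4.596 FPKM in sgTPST2 and 3.12 FPKM in sgGFP. These 3 had counting intervals above 0, as 27.0% of all genes at 1 FPKM or more did.

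The summed TEAD level was close in the 2 libraries, while its make-up was not. The 4 TEAD genes summed to 59.8 FPKM in sgTPST2 and 61.5 FPKM in sgGFP. TEAD4 made up 35.8% of that sum in sgTPST2 and 55.4% in sgGFP, and TEAD1 made up 30.3% in sgTPST2 and 19.9% in sgGFP. The ratio of TEAD4 to TEAD1 was 1.18 (1.08 to 1.29) in sgTPST2 and 2.78 (2.51 to 3.08) in sgGFP. VGLL4, a TEAD-binding protein that competes with YAP1, was at 5.82 FPKM in sgTPST2 and 7.21 FPKM in sgGFP; VGLL1, VGLL2 and VGLL3 were below 1 FPKM in both libraries.

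**Figure D2:**
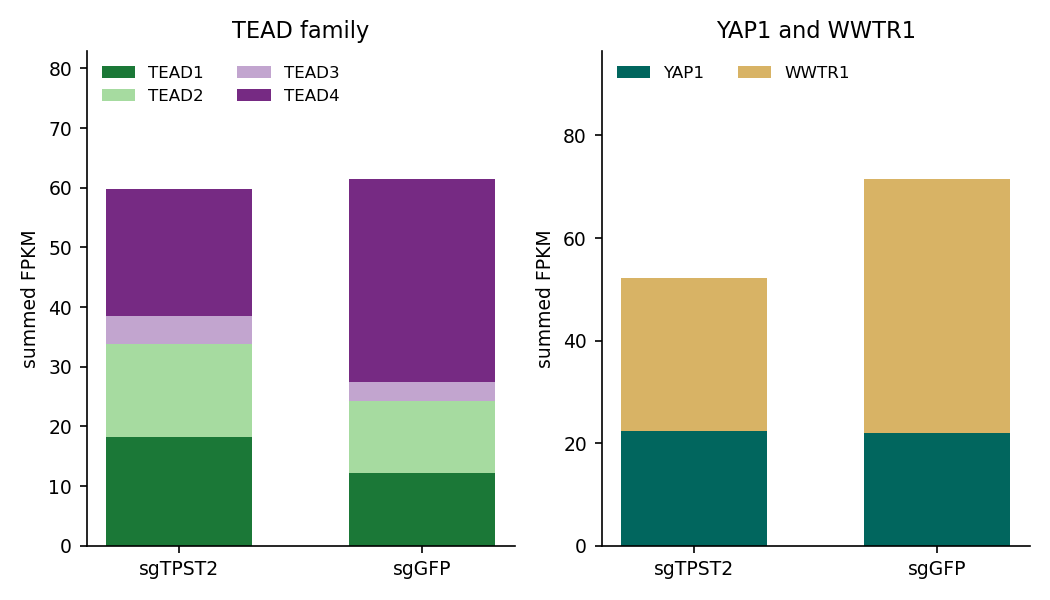
Summed FPKM of the TEAD genes (left) and of YAP1 and WWTR1 (right) in sgTPST2 and sgGFP, 1 library each, stacked by gene. The TEAD sum is nearly equal, at 59.8 FPKM in sgTPST2 and 61.5 FPKM in sgGFP, with a smaller TEAD4 part in sgTPST2; the YAP1 part is 22.3 FPKM in sgTPST2 and 21.97 FPKM in sgGFP, and the WWTR1 part 29.9 FPKM in sgTPST2 and 49.5 FPKM in sgGFP.

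TEAD4 lies on the short arm of chromosome 12, where nearly every gene was lower in sgTPST2. Of 102 protein-coding genes of that arm that averaged 5 FPKM or more, 100 were lower, with a median difference of -0.88 and quartiles of -1.06 and -0.72. TEAD4, at -0.65, was less far down than most of them: 84 genes of the arm had a more negative difference and 17 a less negative or positive one. Its nearest neighbours with such a mean were lower too. TULP3 was at 13.2 FPKM in sgTPST2 and 21.97 FPKM in sgGFP, and RHNO1 was at 42.3 FPKM in sgTPST2 and 74.1 FPKM in sgGFP. On the other side, TSPAN9 was at 4.67 FPKM in sgTPST2 and 9.95 FPKM in sgGFP, and TIGAR was at 7.71 FPKM in sgTPST2 and 13.4 FPKM in sgGFP. Relative to the median of its 10-Mb window (53 genes, -0.83), TEAD4 stood 0.18 higher, so a lower TEAD4 and a lower chromosome arm cannot be told apart in these libraries.

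**Figure D3:**
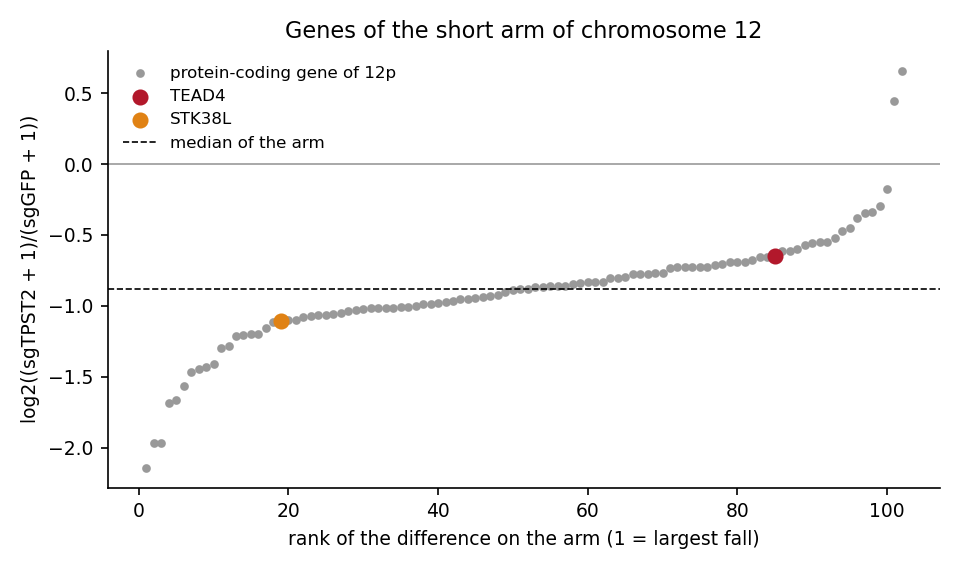
Differences, log2((sgTPST2 + 1)/(sgGFP + 1)), of 102 protein-coding genes of the short arm of chromosome 12, ranked from the most negative. TEAD4 (-0.65) lies above the median of the arm (-0.88, dashed) and STK38L (-1.10) below it.

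Of the matricellular targets, CTGF was higher and CYR61 was within 1.5-fold. CTGF (ENSG00000118523.5, chromosome 6, 131948176 to 131951373, minus strand) was at 4.77 FPKM in sgTPST2 (4.17 to 5.43) and 0.583 FPKM in sgGFP (0.375 to 0.864). On its single annotated transcript of 2339 bp these values stand for about 492 fragments in sgTPST2 and 52.9 in sgGFP. The difference was 1.87 (1.59 to 2.11), and the plain FPKM ratio was 8.18 (5.38 to 12.96), since the added 1 shrinks differences of low genes. On the log2 scale, 1.33% of the 13420 genes were as far apart or further. CTGF passed 1 FPKM through sgTPST2 alone. An antisense gene, AL133346.1, overlaps its 5′ end and was at 0.334 FPKM in sgTPST2 and 0.154 FPKM in sgGFP.

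CYR61 (ENSG00000142871.16, chromosome 1, 85580761 to 85583962, plus strand) was at 11.3 FPKM in sgTPST2 and 8.58 FPKM in sgGFP. Its difference of 0.36 (0.19 to 0.54) is under 1.5-fold, and 22.3% of genes differed by as much or more. CYR61 was therefore the more abundant of the pair in both libraries, at 2.38 times CTGF in sgTPST2 (2.03 to 2.79) and 14.7 times CTGF in sgGFP (9.77 to 23.2). The other 4 genes of their family (NOV, WISP1, WISP2 and WISP3) stayed below 1 FPKM in both libraries and summed to 0.171 FPKM in sgTPST2 and 0.195 FPKM in sgGFP.

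The angiomotins AMOTL1 and AMOTL2, junction-associated scaffolds that bind YAP1 and TAZ and are themselves targets, differed from each other. AMOTL2 (ENSG00000114019.14, chromosome 3, 134355874 to 134375479, minus strand) was at 64.1 FPKM in sgTPST2 and 34.1 FPKM in sgGFP, 1.85-fold higher, with a difference of 0.89 (0.80 to 0.98). It was the most abundant of the 10 genes in sgTPST2 and the third in sgGFP, where its interval overlaps that of TEAD4. AMOTL1 (ENSG00000166025.17, chromosome 11, 94706431 to 94876753, plus strand) was at 3.43 FPKM in sgTPST2 and 3.12 FPKM in sgGFP. Its difference of 0.10 has an interval that includes 0 (-0.16 to 0.36). AMOT, the third angiomotin, is listed at 0 in both libraries, so AMOTL2 had the highest level of the 3, at 18.7 times AMOTL1 in sgTPST2 and 10.9 times in sgGFP.

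ARHGEF17 was also higher. It (ENSG00000110237.4, chromosome 11, 73308289 to 73369388, plus strand) was at 7.28 FPKM in sgTPST2 and 3.61 FPKM in sgGFP. The difference was 0.84 (0.62 to 1.07), or 1.79-fold on the log2(FPKM + 1) scale, and 6.19% of genes differed by as much or more. The 41 well-expressed genes of its window, ARHGEF17 among them, had a median of -0.11. ARHGEF17 thus stood apart from its window, as did AMOTL2 (window median 0.04) and CTGF (0.01).

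NT5E was the target called lower. NT5E (ENSG00000135318.11, chromosome 6, 85449584 to 85495791, plus strand) encodes CD73, the surface enzyme that makes adenosine from AMP. It was at 30.4 FPKM in sgTPST2 and 76.2 FPKM in sgGFP, 2.46-fold lower, with a difference of -1.30 (-1.39 to -1.21). It was the most abundant of the 10 genes in sgGFP; in sgTPST2 it ranked second, with an interval overlapping that of WWTR1. The 25 genes of its window had a median of -0.02, and NT5E shares chromosome 6 with CTGF, which stood higher. NT5E was at 0.474 times AMOTL2 in sgTPST2 and 2.23 times AMOTL2 in sgGFP, so these targets changed places in the order of levels.

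**Figure D4:**
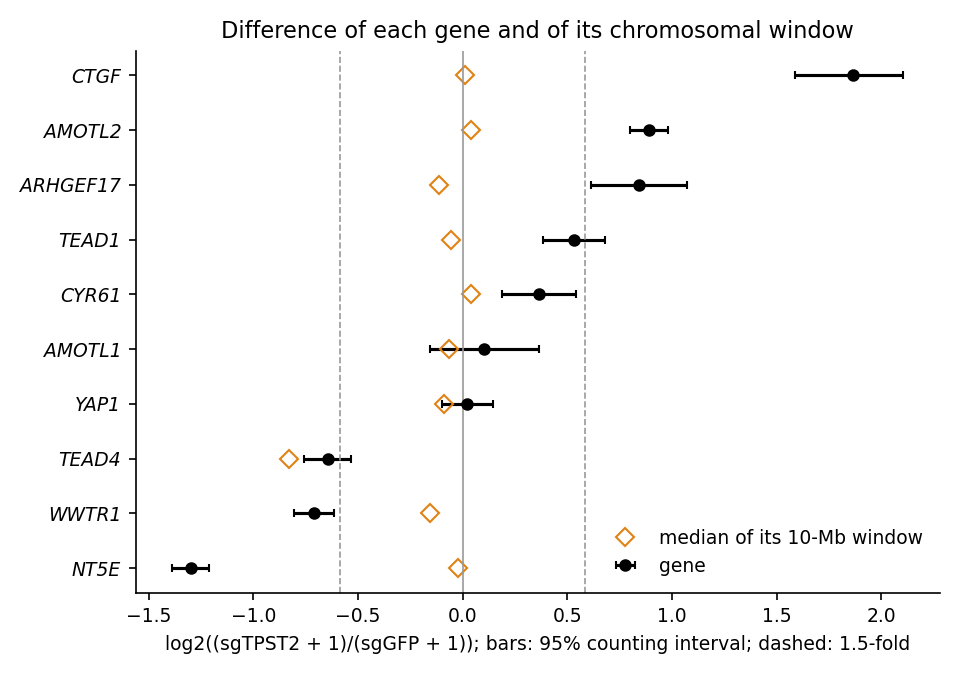
Difference of each of the 10 genes, log2((sgTPST2 + 1)/(sgGFP + 1)), with its 95% counting interval (black) and the median of well-expressed protein-coding genes in its 10-Mb window (open diamonds); dashed lines mark 1.5-fold. TEAD4 (-0.65) is the gene whose window (-0.83) lies further from 0 than the gene itself does, apart from YAP1, where both are near 0.

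The order of levels in sgTPST2 was AMOTL2, NT5E, WWTR1, YAP1, TEAD4, TEAD1, CYR61, ARHGEF17, CTGF and AMOTL1. Counting intervals of NT5E and WWTR1, and of YAP1 and TEAD4, overlap there. In sgGFP the order was NT5E, WWTR1, AMOTL2, TEAD4, YAP1, TEAD1, CYR61, ARHGEF17, AMOTL1 and CTGF, with overlap between AMOTL2 and TEAD4 and between ARHGEF17 and AMOTL1. The places from TEAD1 to ARHGEF17 were the same in both libraries.

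Further targets that are often used to read out YAP/TAZ activity were mostly within 1.5-fold, as were most genes at 1 FPKM or more. Of 17 such genes 13 reached 1 FPKM, and 1 was higher and none lower, where 4.41% of all genes at 1 FPKM or more were higher and 6.94% lower. Their median was 0.35, against -0.00019 over all those genes. With the 4 targets below 1 FPKM included, the median was 0.11. Counting intervals lay above 0 for 7 of the 13 and below 0 for 4, where 27.0% and 27.2% of all genes did. The gene called higher was RBMS3, an RNA-binding protein, at 14.9 FPKM in sgTPST2 and 3.49 FPKM in sgGFP, a difference of 1.82. Its antisense gene RBMS3-AS3 was at 1.21 FPKM in sgTPST2 and is listed at 0 in sgGFP. Among the most abundant, the membrane repair protein MYOF was at 104 FPKM in sgTPST2 and 128 FPKM in sgGFP, and CRIM1 was at 41.8 FPKM in sgTPST2 and 50.4 FPKM in sgGFP. The stress gene GADD45A was at 20.9 FPKM in sgTPST2 and 14.7 FPKM in sgGFP, and the receptor tyrosine kinase gene AXL was at 17.2 FPKM in sgTPST2 and 12.2 FPKM in sgGFP. ANKRD1, a target in many cell types, was at 0.023 FPKM in sgTPST2 and is listed at 0 in sgGFP. With CYR61, CTGF, AMOTL2, ARHGEF17 and NT5E added, 18 of 22 targets reached 1 FPKM, 4 were higher and 1 lower, against the same shares of all genes.

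The Hippo kinases and their adaptors, which restrain YAP1 and TAZ, were mostly within 1.5-fold, as were most genes at 1 FPKM or more. All 13 reached 1 FPKM, none was higher and 1 was lower, with a median of 0.11, and over all genes 4.41% were higher and 6.94% lower. The lower one was STK38L, a kinase related to LATS, at 9.62 FPKM in sgTPST2 and 21.8 FPKM in sgGFP; it too lies on the short arm of chromosome 12, in a window with a median of -1.07. LATS2, which is also a target, was at 8.735 FPKM in sgTPST2 and 6.24 FPKM in sgGFP, and LATS1 was at 4.24 FPKM in sgTPST2 and 4.75 FPKM in sgGFP. The kinase genes STK3 and STK4, which encode the mammalian Hippo kinases, were within 1.5-fold, STK3 at 13.4 FPKM in sgTPST2 and 15.9 FPKM in sgGFP and STK4 at 13.7 FPKM in sgTPST2 and 17.3 FPKM in sgGFP. The most abundant were the LATS co-activator MOB1A, at 130 FPKM in sgTPST2 and 111 FPKM in sgGFP, and the kinase MAP4K4, at 36.2 FPKM in sgTPST2 and 33.4 FPKM in sgGFP. The kinase TAOK1 was at 19.5 FPKM in sgTPST2 and 24.6 FPKM in sgGFP, and STK38 was at 25.1 FPKM in sgTPST2 and 19.1 FPKM in sgGFP.

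Of 18 upstream regulators 15 reached 1 FPKM, 2 were higher and 1 was lower, with a median of 0.12, where 4.41% of all genes were higher and 6.94% lower. The lists overlap: TAOK1 is also counted among the kinases and PTPN14 among the further targets. WWC1 (KIBRA), a scaffold that promotes LATS activation, was at 2.51 FPKM in sgTPST2 and 7.05 FPKM in sgGFP, a difference of -1.20 (-1.44 to -0.96). FRMD6, a FERM-domain protein placed upstream of the kinases, was at 7.76 FPKM in sgTPST2 and 3.86 FPKM in sgGFP, a difference of 0.85, with its antisense gene FRMD6-AS1 at 1.07 FPKM in sgTPST2 and 0.695 FPKM in sgGFP. AJUBA, a LIM protein that inhibits LATS, was at 11.9 FPKM in sgTPST2 and 7.40 FPKM in sgGFP, a difference of 0.62. An overlapping gene on its strand, AL132780.3, was at 2.66 FPKM in sgTPST2 and 2.94 FPKM in sgGFP. The tumour suppressor gene NF2, which recruits LATS to the membrane, was at 93.3 FPKM in sgTPST2 and 82.1 FPKM in sgGFP.

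**Figure D5:**
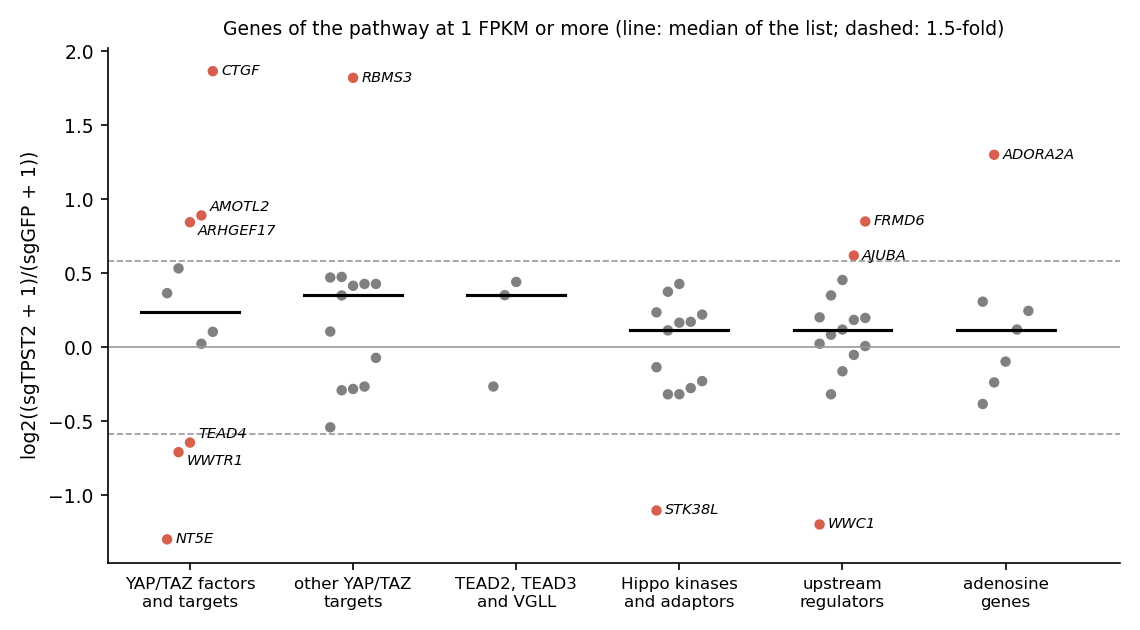
Differences, log2((sgTPST2 + 1)/(sgGFP + 1)), of the genes at 1 FPKM or more in each list, with the median of the list as a line and genes at least 1.5-fold apart in red and named. Of the other YAP/TAZ targets RBMS3 (1.82) is past 1.5-fold, of the kinases STK38L (-1.10), and of the upstream regulators WWC1 (-1.20), FRMD6 (0.85) and AJUBA (0.62).

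Around NT5E, the other genes of adenosine handling were mostly within 1.5-fold, as were most genes at 1 FPKM or more. Of 14 genes 7 reached 1 FPKM, 1 was higher and none lower, with a median of 0.12, beside 4.41% higher and 6.94% lower over all genes. The higher one was the adenosine receptor ADORA2A, at 20.5 FPKM in sgTPST2 and 7.75 FPKM in sgGFP, a difference of 1.30 (1.14 to 1.47). The readthrough gene SPECC1L-ADORA2A, which overlaps it on the same strand, was at 0.164 FPKM in sgTPST2 and 0.166 FPKM in sgGFP. The receptor ADORA2B was at 19.3 FPKM in sgTPST2 and 22.9 FPKM in sgGFP, and ADORA1 was at 20.8 FPKM in sgTPST2 and 19.1 FPKM in sgGFP. Adenosine kinase, ADK, was at 80.0 FPKM in sgTPST2 and 67.4 FPKM in sgGFP, and the nucleoside transporter SLC29A1 was at 43.6 FPKM in sgTPST2 and 46.7 FPKM in sgGFP. ENTPD1 (CD39), which makes the AMP that CD73 uses, stayed below 1 FPKM in both libraries.

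CTGF, CYR61 and NT5E are also expressed by fibroblasts and endothelial cells, and few markers of those cells were detected. Of 10 fibroblast markers 3 reached 1 FPKM (COL1A2, COL3A1 and ACTA2), all 3 lower in sgTPST2, and the list summed to 16.7 FPKM in sgTPST2 and 50.2 FPKM in sgGFP; LUM, DCN and FAP are listed at 0 in both libraries. Of 7 endothelial markers 2 reached it (CDH5 and EMCN), both lower in sgTPST2, with sums of 0.576 FPKM in sgTPST2 and 13.0 FPKM in sgGFP, and PECAM1, KDR and TEK are listed at 0 in both. Of 7 leukocyte markers 2 reached it (CD14 and CD68), with sums of 3.42 FPKM in sgTPST2 and 6.28 FPKM in sgGFP. The part of such cells in the results above was not tested. In RNA from whole cultures, fewer cells of a type and less RNA per cell cannot be told apart.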

How the data were processed

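RNA of MIA PaCa-2 cells was sequenced as 1 total RNA library per group with a stranded kit, per the labels' protocols. STAR, Cuffdiff and the build hg38 are named in the submitters' processing notes; the sources used here name neither versions nor annotation, nor whether counting used strand, so genes on opposite strands may share reads. The deposited table gives 1 value per gene and library. Its header names no unit, and the values were read as FPKM as scaled by the authors, since Cuffdiff reports FPKM. The q-value and the p-value are the authors'. Their log2 fold change and test-statistic score were deposited but not used.

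All 58698 gene identifiers and symbols match GENCODE release 29 (GRCh38), which gave positions. Values were compared as log2((sgTPST2 + 1)/(sgGFP + 1)) among 13420 genes that reached 1 FPKM in either library, and 1.5-fold was the size counted. Depth was read from low values of genes with a single transcript: 93.0% of 776 values in sgTPST2 and 91.5% of 837 in sgGFP lay within 0.1 of a whole fragment, with step and offset fitted on the same values. The longest coding transcripts of the 10 genes run from 1690 to 8970 bp and the shortest from 477 to 2339 bp, so intervals for 1 kb are nominal. Windows of 10 Mb used 8567 protein-coding genes tested by the authors with a mean of at least 5 FPKM. A gene that met these limits was counted in its own window. The short arm of chromosome 12 was taken to end at 35 Mb. The members, lists and windows were chosen with earlier results of these data known. Besides the 10 genes and TPST2, genes were named when they were 1.5-fold apart or, in 4 lists, among the 4 most abundant; LATS1, LATS2, STK3, STK4, NF2, ANKRD1, ENTPD1 and other genes outside this rule were chosen after their values were seen. Scripts used Python 3.11.15, pandas 2.3.3, numpy 2.4.6, scipy 1.17.1 and matplotlib 3.10.9 and were tested on simulated data. Pseudocounts, filters, scalings and removal of that chromosome arm were tried as alternatives.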

Additional observations from a re-analysis of the deposited data

How the results depend on the processing

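No paired analysis was possible because sgTPST2 and sgGFP have 1 library each, which also means that no library could be removed. Rescaling to the same upper quartile, to the same sum or to the median gene moved the median of all genes by at most 0.012 and left every count, list median and gene difference compared inside its bounds (a count within 1.5 times, a value within its counting interval). Of 60 recomputed differences of the 10 genes, 56 stayed inside their counting interval. The exceptions were CTGF, at 2.83 with a pseudocount of 0.1 and 3.01 with 0.01, where the smaller constant shrinks low values less, and 2 genes relative to the median of their 10-Mb window, an alternative chosen after seeing the data. WWTR1 was then at -0.55, and TEAD4 turned to 0.18. Relative to the windows the count of lower genes became 1 (NT5E), the count of higher genes became 4, with TEAD1 at 0.59, and the median of the 4 factors became 0.15. Without genes of the short arm of chromosome 12, which removes TEAD4, that median was 0.023. Without a filter on low values, which adds 4 genes below 1 FPKM, the median of the other YAP/TAZ targets was 0.11. At a minimum of 5 FPKM, which CTGF (4.77 FPKM in sgTPST2) misses, 2 genes were higher. Depth limits CTGF in sgGFP most, with about 24 fragments per kb.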
